A study of Mus musculus with 4 samples.

Results

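Cyclins, cyclin-dependent kinases (CDKs) and the genes with cell division cycle (CDC) names were followed in ribosome profiling (Ribo-seq) of mouse leptotene/zygotene spermatocytes. Members were the rows whose symbol starts with Ccn and letters, is Cdk and a number, or starts with Cdc and a digit, leaving out *Ccnb1ip1*, *Cdc6* and *Cdc45*. These were 67 of the 11598 genes of the table, 25 cyclin names, 15 CDK names and 27 CDC names. Symbols rather than functions chose them, so the group also holds the GTPase *Cdc42* with its partners, and the splicing and chaperone genes *Cdc5l*, *Cdc40* and *Cdc37*.

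Ribo-seq counts ribosome-protected fragments (RPFs), stretches of mRNA protected by a ribosome while RNase I digests the rest. The 4 libraries came from leptotene/zygotene spermatocytes enriched from testes of mice at 12 days postpartum (dpp) by fluorescence-activated sorting after Hoechst staining, 2 from control mice, whose genotype the labels give as wild type, and 2 from *Eef1g*-cKO mice. In *Eef1g*-cKO mice *Stra8*-GFPCre, active in male germ cells from differentiating type A spermatogonia on, so before meiosis starts, removes floxed exons of *Eef1g*, a subunit of the translation elongation factor complex eEF1B, on a C57BL/6J background. Nothing in the labels says whether the 2 libraries of a genotype came from separate animals, so p-values measure only the spread between these libraries, which may be technical. The control libraries had 2479504 and 1384282 reads on genes, of which 10558 and 6502 fell on members, and the *Eef1g*-cKO libraries had 223906 and 407979, of which 1080 and 1834 fell on members. *Eef1g*, the targeted gene and the check of the labels, had 107 and 58 control reads and 0 and 4 *Eef1g*-cKO reads, or 27.6 and 26.8 FPKM in control and 0 and 6.26 FPKM in *Eef1g*-cKO, lower in both *Eef1g*-cKO libraries (log2 fold change -3.39, limma adjusted p = 0.0731).

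A cyclin is a regulatory subunit that rises and falls through the cell cycle and switches on the CDK it binds. In the mitotic cycle D cyclins act with CDK4 and CDK6, E cyclins with CDK2, and A and B cyclins with CDK2 and CDK1. Cyclins are removed through the anaphase-promoting complex (APC/C), which CDC20 activates, and through SCF ubiquitin ligases, while CDC25 phosphatases activate CDKs. Leptotene/zygotene spermatocytes have finished their last DNA replication and hold CDK1 back for most of a long prophase. Cyclin B3 is known from early meiotic prophase of male mice, and CDK2 is known for its place on meiotic chromosome ends. A further set of cyclins and CDKs acts in transcription and splicing rather than in division.

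Promoters are shown for the 3 B-type cyclins and for *Ccnf*, since *Ccnb1* and *Ccnf* fell and *Ccnb3* rose in RPF abundance while *Ccnb2* was not called. The stretches are the 150 bases before the annotated start, from RefSeq on GRCm38.p6, written 5′ to 3′ on the gene's strand. Capitals mark CCAAT, the box that NF-Y binds, and TTTGAA, the element called the cell cycle homology region, each sought on both strands. The windows lie at chr13:100786487-100786636 for *Ccnb1*, chr9:70421555-70421704 for *Ccnb2*, chrX:7041620-7041769 for *Ccnb3* and chr17:24251410-24251559 for *Ccnf*, all on the minus strand.
Ccnb1: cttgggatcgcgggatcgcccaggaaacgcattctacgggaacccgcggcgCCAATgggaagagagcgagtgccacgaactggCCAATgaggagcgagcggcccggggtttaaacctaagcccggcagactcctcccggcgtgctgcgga
Ccnb2: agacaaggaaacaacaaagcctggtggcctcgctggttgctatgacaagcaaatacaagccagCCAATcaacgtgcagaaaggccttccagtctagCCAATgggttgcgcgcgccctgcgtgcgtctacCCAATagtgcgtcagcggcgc
Ccnb3: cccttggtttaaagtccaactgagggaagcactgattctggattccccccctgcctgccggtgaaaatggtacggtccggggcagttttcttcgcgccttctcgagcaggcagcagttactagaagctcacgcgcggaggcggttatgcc
Ccnf: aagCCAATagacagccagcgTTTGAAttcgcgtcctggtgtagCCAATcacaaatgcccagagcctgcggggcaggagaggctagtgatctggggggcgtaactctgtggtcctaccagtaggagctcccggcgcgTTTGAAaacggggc

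*Ccnb1* had CCAAT at -99 and -67 from the start, *Ccnb2* at -87, -54 and -21, and *Ccnf* at -147 and -107, with TTTGAA at -130 and -14 in *Ccnf*. In *Ccnb2* TTTGAA stood at -167 and 4, outside the printed stretch. *Ccnb3* held neither set of letters in this stretch. Promoter windows of 250 bases before to 50 after the start were given for 55 members. Over the 53 tested members among them 47.2% held CCAAT in at least 1 window, against 44.0% of 7924 tested genes, and 20.8% held TTTGAA, against 13.1%. The letters CNCCTCAG, the motif known for STRA8 and MEIOSIN, stood in 7.55% of the members and 11.3% of the tested genes. A match is a run of letters in a window and says nothing of binding.

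The members' summed share of the RPFs overlapped between genotypes. Per 1000000 counted reads they took 4258 and 4697 (control) and 4823 and 4495 (*Eef1g*-cKO), ranges that overlap (ratio of means 1.04, exact two-sided permutation test p = 0.667; the smallest p that 2 libraries against 2 allow is 0.333). The values compared were FPKM, reads per kilobase of gene per 1000000 counted reads, on the log2(FPKM + 1) scale, which understates the change of low genes. Of the 67 members 65 had a mean of at least 1 FPKM and were tested. With calls at a limma adjusted p under 0.05 together with a log2 fold change beyond 1, 1 member rose, *Ccnb3*, where 2.87% of 10475 tested genes did, and 3 fell, *Ccnd1*, *Ccnb1* and *Ccnf*, where 4.97% of tested genes did. By unadjusted p under 0.05 and the same fold these were 2 members up (7.32% of all tested genes) and 8 down (16.3%), 3 of the 8 with at most 3 reads in each *Eef1g*-cKO library. For 14 members both *Eef1g*-cKO libraries exceeded both control libraries (24.6% of all tested genes), for 24 they were under both (37.7%), and for 27 the genotypes overlapped. edgeR's quasi-likelihood test on the recovered reads, which kept 58 members, called 3 increased (*Ccnb3*, *Ccnc* and *Ccne2*; 8.75% of its genes) and 4 decreased (*Ccnb1*, *Ccnd1*, *Ccnf* and *Cdc42se2*; 11.2%).

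The median log2 fold change of the tested members was -0.10, with 30 above 0 and 35 below, and that of all tested genes was -0.23. Centring each library on its median raised the median of all genes by 0.21 and turned the members' split from 1 increased and 3 decreased to 3 increased (*Ccnb3*, *Ccne2* and *Cdc73*) and 1 decreased (*Ccnd1*), as it turned that of all genes from 301 increased and 521 decreased to 521 and 383. Every statement of direction below is on the uncentred scale unless said otherwise.

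**Figure D1:**
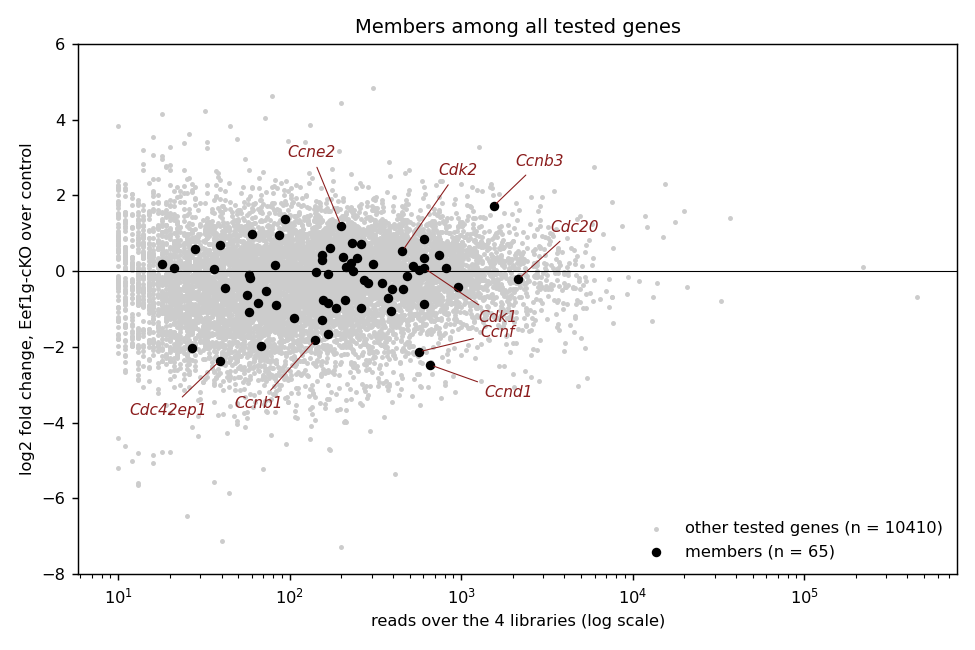
Log2 fold change of *Eef1g*-cKO over control (limma on log2(FPKM + 1), vertical axis) against the reads of each gene summed over the 4 libraries (log scale), with the 65 tested members in black and the other 10410 tested genes in grey. *Ccnb3* stands highest of the members and *Ccnd1* lowest, while *Cdc42ep1* rests on few reads. *Ccnd1* is well covered in control only, with few reads in *Eef1g*-cKO.

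Among the A and B cyclins, which drive entry into M phase with CDK1, the 3 B-type genes parted. *Ccnb3* on chromosome X had 65.9 and 45.5 FPKM in control and 194 and 174 FPKM in *Eef1g*-cKO, from 744 and 287 control reads and 198 and 324 *Eef1g*-cKO reads. Both *Eef1g*-cKO libraries stood far above both control libraries, and the mean rose from 55.7 ± 14.4 FPKM in control to 184 ± 14 FPKM in *Eef1g*-cKO (SD, n = 2 each), with a log2 fold change 1.73, standard error 0.25, limma adjusted p = 0.0307. Pooled over libraries, its read rate in *Eef1g*-cKO against control was 3.096 (exact 95% interval 2.78 to 3.44, counting error only). *Ccnb1*, the main mitotic B cyclin, went the other way, with 16.02 and 13.7 FPKM in control and 3.86 and 3.18 FPKM in *Eef1g*-cKO. The genotypes did not overlap, and *Ccnb1* fell by 1.81 on the log2 scale (standard error 0.38, limma adjusted p = 0.0472), but its *Eef1g*-cKO level rests on 2 and 3 reads and its pooled rate ratio was 0.225 (exact 95% interval 0.0718 to 0.538, counting error only).

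*Ccnb2*, which shares much of the role of cyclin B1, had 31.9 and 38.9 FPKM in control and 75.4 and 46.1 FPKM in *Eef1g*-cKO. Both *Eef1g*-cKO libraries were above both control libraries, replicate 2 by little, and the test was not passed (log2 fold change 0.73, standard error 0.31, limma adjusted p = 0.175). *Ccna2*, the A cyclin of S phase and mitosis, had 27.98 and 28.8 FPKM in control and 22.2 and 22.7 FPKM in *Eef1g*-cKO, lower in both *Eef1g*-cKO libraries by less than the test could call (log2 fold change -0.32, standard error 0.24, limma adjusted p = 0.403, 95% interval -0.93 to 0.28). Within the A and B cyclins *Ccnb3* supplied 64.5% and 54.6% of control reads but 82.5% and 84.8% of *Eef1g*-cKO reads. Per length, the FPKM of *Ccnb3* was 4.11 and 3.32 times that of *Ccnb1* in control and 50.3 and 54.9 times in *Eef1g*-cKO. Whether the change of *Ccnb3* differed from that of *Ccnb1* was not tested beyond each gene's own test.

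**Figure D2:**
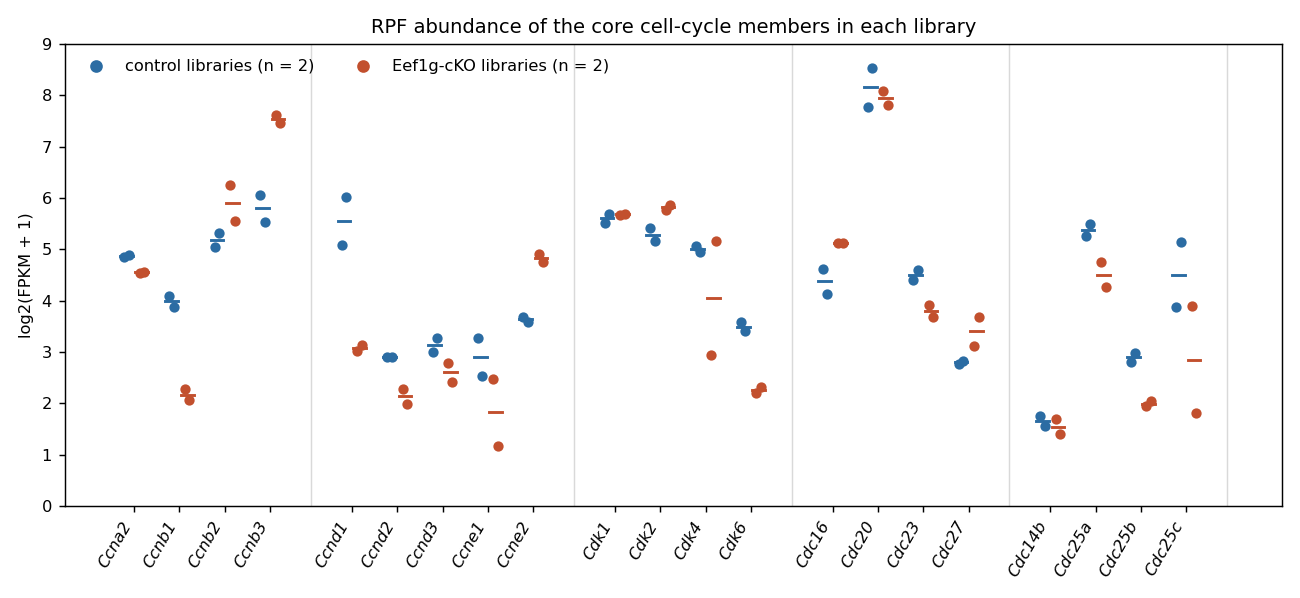
RPF abundance of the A, B, D and E cyclins, the cell-cycle CDKs, the APC/C genes and the CDC25 and CDC14 phosphatases as log2(FPKM + 1), with 1 point for each library (control blue, *Eef1g*-cKO red, n = 2 each) and a bar at the mean. *Ccnb3* and *Ccne2* lie higher in both *Eef1g*-cKO libraries and *Ccnb1*, *Ccnd1* and *Cdk6* lower, while *Cdk1* and *Cdc20* overlap.

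The D and E cyclins, which carry cells through G1 into S phase, held 1 gene that fell and 1 near the threshold upward. *Ccnd1*, the D cyclin best known as a target of growth signals, had 32.7 and 63.8 FPKM in control and 7.06 and 7.75 FPKM in *Eef1g*-cKO, from 308 and 335 control reads and 6 and 12 *Eef1g*-cKO reads. Control replicate 2 was well above control replicate 1, and both lay far above the *Eef1g*-cKO libraries, which stood close together. *Ccnd1* fell by 2.48 on the log2 scale (standard error 0.39, limma adjusted p = 0.0327, edgeR adjusted p = 1.08e-04). Its share of the D and E cyclin reads was 53.5% and 70.4% in the control libraries but 16.2% and 20.7% in *Eef1g*-cKO.

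*Ccne2*, an E cyclin that partners CDK2 and is known from meiotic prophase, had 11.9 and 10.99 FPKM in control and 29.1 and 25.9 FPKM in *Eef1g*-cKO. The 2 libraries of each genotype were close and the genotypes lay apart, yet limma's adjusted p stopped short of the threshold (log2 fold change 1.19, standard error 0.28, limma adjusted p = 0.05601), while edgeR's did not (adjusted p = 0.0103). *Ccne1*, its paralog, had 8.66 and 4.801 FPKM in control and 4.57 and 1.25 FPKM in *Eef1g*-cKO and only 2 and 1 reads in *Eef1g*-cKO (log2 fold change -1.08, standard error 0.61, limma adjusted p = 0.2802). *Ccnd2* had 6.43 and 6.51 FPKM in control and 3.87 and 2.97 FPKM in *Eef1g*-cKO and *Ccnd3* 6.96 and 8.63 FPKM in control and 5.93 and 4.34 FPKM in *Eef1g*-cKO, so that both D cyclins were lower in both *Eef1g*-cKO libraries without passing the test (limma adjusted p = 0.271 and 0.416). Of these 5 genes 4 had a negative log2 fold change, also with centred libraries, where 1 of the 5, *Ccne2*, was called increased and *Ccnd1* decreased.

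Markers of the cells a sorted fraction could hold also differed between genotypes. By staining for SYCP3 and γH2AX, the study reported comparable shares of leptotene/zygotene spermatocytes in the sorted cells of both genotypes. Summed over 13 spermatogonial marker genes in the table, the libraries held 2785 and 3338 (control) and 563 and 549 (*Eef1g*-cKO) reads per 1000000. All 13 genes had a negative log2 fold change, though *Nanos3* and *Gfra1* overlapped between genotypes, and the median over all tested genes was -0.23. By adjusted p in limma 7 decreased, among them *Kit*, *Dmrt1* and *Zbtb16*, where 4.97% of all tested genes decreased. The 18 leptotene/zygotene markers summed to 5612 and 4361 in control and to 10723 and 10501 in *Eef1g*-cKO. Of these 18 markers 16 had a positive log2 fold change and 7 increased, where 2.87% of all tested genes increased. The labelled cell type thus carried its defining markers in every library. These markers include *Sycp3*, *Dmc1* and *Hormad1*, which the study lists among its genes with increased RPFs in these samples. Pachytene and later markers went from 963 and 727 to 2059 and 2044. In every library most of this sum came from *Hist1h1t* and *Hspa2*, with 240 and 406 and with 135 and 303 reads in *Eef1g*-cKO. Of the 7 markers 5 had a positive log2 fold change and 2 increased, *Hist1h1t* and *Clgn*, where 2.87% of all tested genes increased. *Piwil1* went from 80 and 16 control reads to 1 and 2 in *Eef1g*-cKO. In adult *Eef1g*-cKO testes the study found no H1T-positive and no pachytene spermatocytes. The 12 Sertoli cell markers summed to 1282 in control replicate 1 and to 336 in control replicate 2, 317 and 208 in *Eef1g*-cKO, with *Gata4* at 0 reads in both *Eef1g*-cKO libraries. All 12 Sertoli cell markers and all 4 peritubular markers had a negative log2 fold change, and none of them was called. Of 2 preleptotene markers in the table *Stra8* decreased and *Rhox13* was higher in both *Eef1g*-cKO libraries (log2 fold change 0.90, limma adjusted p = 0.0842). Leydig cell, spermatid, and endothelium and blood markers summed to at most 32.5 reads per 1000000 in any library, peritubular markers to 144 and 111 (control) and 53.6 and 66.2 (*Eef1g*-cKO), and none of 8 macrophage markers was in the table. The part of these cells in the changes of *Ccnd1*, *Ccnb1*, *Ccnf* and *Ccnb3* was not tested. In bulk libraries fewer cells of a type and less RNA per cell cannot be told apart, and neither can less mRNA and fewer ribosomes per mRNA from RPFs alone.

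None of the 4 cell-cycle CDKs passed limma's adjusted test over the 4 libraries. *Cdk1*, the kinase of the B cyclins, had 44.8 and 50.5 FPKM in control and 49.97 and 50.6 FPKM in *Eef1g*-cKO, overlapping values (log2 fold change 0.08, standard error 0.22, limma adjusted p = 0.8302, 95% interval -0.45 to 0.61). *Cdk2*, partner of the E and A cyclins, had 41.5 and 34.8 FPKM in control and 53.3 and 57.4 FPKM in *Eef1g*-cKO, higher in both *Eef1g*-cKO libraries (log2 fold change 0.53, standard error 0.23, limma adjusted p = 0.179). *Cdk6*, a kinase of the D cyclins, had 10.9 and 9.65 FPKM in control and 3.62 and 3.97 FPKM in *Eef1g*-cKO, lower in both (log2 fold change -1.24, standard error 0.39, limma adjusted p = 0.0995), from only 2 and 4 reads in *Eef1g*-cKO. The values of *Cdk4*, its close relative, were 32.4 and 30.1 FPKM in control and 6.64 and 34.6 FPKM in *Eef1g*-cKO. *Eef1g*-cKO replicate 1 stood far below the rest with 2 reads and replicate 2 with 19 reads was at the control level, so *Cdk4* showed no common shift (log2 fold change -0.97, standard error 0.70, limma adjusted p = 0.386). Without *Eef1g*-cKO replicate 2 it was called decreased (log2 fold change -2.08, limma adjusted p = 0.00475), and without replicate 1 its log2 fold change was 0.15.

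Cyclin F, the product of *Ccnf*, binds no CDK in the usual way and is the F-box subunit of an SCF ubiquitin ligase. *Ccnf* had 39.4 and 57.3 FPKM in control and 15.9 and 6.33 FPKM in *Eef1g*-cKO, from 303 and 246 control reads and 11 and 8 *Eef1g*-cKO reads. The genotypes did not overlap, and the 2 *Eef1g*-cKO libraries were further apart in ratio than the 2 control libraries. *Ccnf* fell by 2.13 on the log2 scale with an adjusted p at the edge of the threshold (standard error 0.46, limma adjusted p = 0.0497), and edgeR gave an adjusted p of 4.74e-04. In the order of the members by mean FPKM, *Ccnf* and *Ccnd1* took places 5 and 6 for control but 34 and 40 for *Eef1g*-cKO, while *Ccnb3* went from 4 to 2.

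The remaining 8 members with cyclin names outside the core and transcription groups were not called by limma. *Ccng2*, a cyclin linked to cell-cycle arrest, had 5.498 and 3.19 FPKM in control and 8.95 and 9.83 FPKM in *Eef1g*-cKO and was higher in both *Eef1g*-cKO libraries (log2 fold change 0.99, standard error 0.43, limma adjusted p = 0.181). *Ccno*, known for the making of centrioles in ciliated cells, had 22 and 5 control reads and 0 and 0 *Eef1g*-cKO reads, so that a count of 0, which allows up to 3 reads, gives no fold at this depth. *Ccng1* was lower in both *Eef1g*-cKO libraries and *Ccni* higher in both, neither past the test. *Ccny*, *Ccnyl1*, *Ccnj* and *Ccndbp1* overlapped between genotypes.

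Calls on the 4 cyclins were also fitted with 1 library left out, which leaves 1 library in a genotype, takes the spread from the other genotype alone and assumes that the lone library varies as those do. Without control replicate 1 the limma adjusted p was 0.089 for *Ccnb3*, 0.128 for *Ccnd1*, 0.271 for *Ccnb1* and 0.304 for *Ccnf*, and without control replicate 2 it was 0.136, 0.236, 0.299 and 0.402, with every fold change keeping its sign. Without either *Eef1g*-cKO library, where the spread is that of the 2 control libraries, all 4 were called. Over the 18 alternatives *Ccnb3* and *Ccnd1* were each called in 13 and *Ccnb1* and *Ccnf* each in 10, and *Ccne2* was called in 8. The log2 fold change ranged from 1.18 to 1.99 for *Ccnb3*, from -2.95 to -1.86 for *Ccnd1*, from -2.34 to -1.22 for *Ccnb1* and from -2.73 to -1.53 for *Ccnf*.

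**Figure D3:**
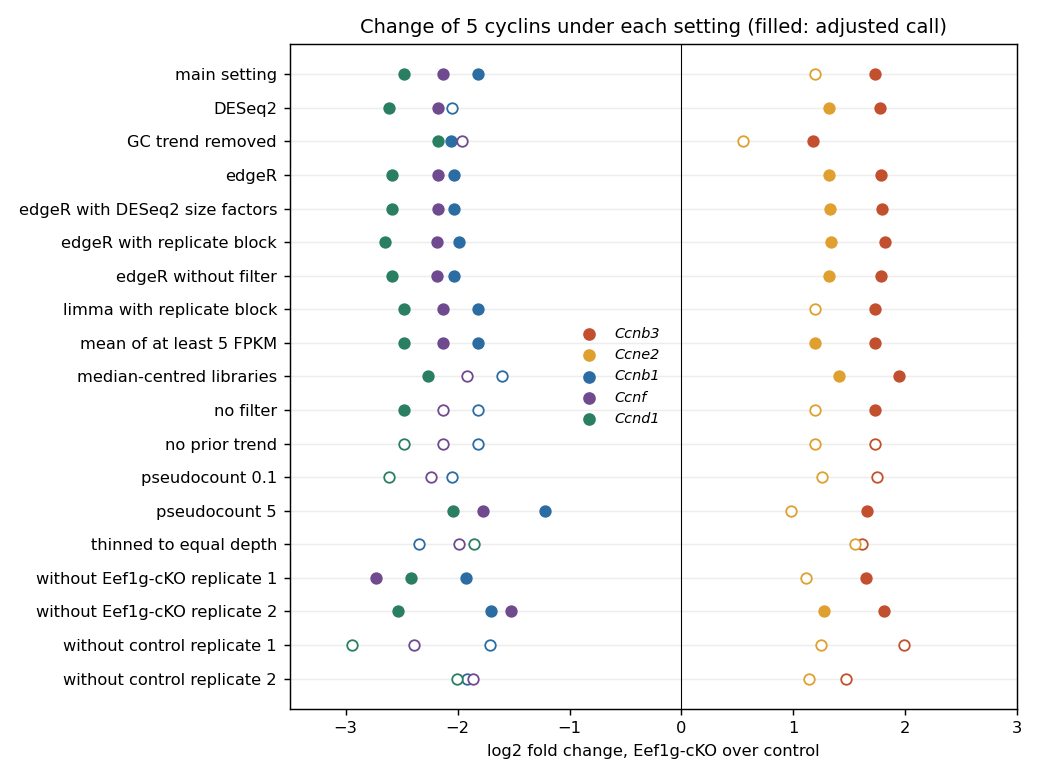
Log2 fold change of *Eef1g*-cKO over control for 5 cyclins under the main setting and each of 18 alternatives, filled where the adjusted p was under 0.05 and the log2 fold change beyond 1. *Ccnb3* and *Ccne2* stay above 0 and *Ccnd1*, *Ccnb1* and *Ccnf* below 0 in every setting, and no symbol is filled without control replicate 1 or control replicate 2, without the prior trend, at a pseudocount of 0.1 or in libraries thinned to equal depth.

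Of the APC/C genes, *Cdc20*, which encodes its mitotic activator, was the member with the highest mean FPKM in both genotypes, with 218 and 371 FPKM in control and 270.4 and 223 FPKM in *Eef1g*-cKO, and its genotypes overlapped (log2 fold change -0.21, standard error 0.30, limma adjusted p = 0.666). *Cdc16*, which encodes a scaffold subunit, had 23.7 and 16.5 FPKM in control and 34.03 and 34.1 FPKM in *Eef1g*-cKO, higher in both *Eef1g*-cKO libraries (log2 fold change 0.75, standard error 0.28, limma adjusted p = 0.141). *Cdc27*, a subunit that binds the activators, had 5.84 and 6.11 FPKM in control and 7.703 and 11.8 FPKM in *Eef1g*-cKO (log2 fold change 0.60, standard error 0.40, limma adjusted p = 0.349). *Cdc23*, a further scaffold subunit, had 20.2 and 23.2 FPKM in control and 14.04 and 11.9 FPKM in *Eef1g*-cKO, lower in both (log2 fold change -0.70, standard error 0.29, limma adjusted p = 0.169). None of the 4 passed the adjusted test, and 2 had positive and 2 negative fold changes, or 3 and 1 with centred libraries, where that of *Cdc20* turned to 0.00311.

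The CDC25 phosphatases, which take inhibitory phosphates off CDKs, were all below 0 on the log2 fold change scale, none past limma's adjusted test over the 4 libraries. *Cdc25a*, which acts at several points of the cycle, had 37.5 and 44.02 FPKM in control and 25.9 and 18.2 FPKM in *Eef1g*-cKO, lower in both *Eef1g*-cKO libraries (log2 fold change -0.87, standard error 0.28, limma adjusted p = 0.104). *Cdc25b* had 6.02 and 6.88 FPKM in control and 2.83 and 3.11 FPKM in *Eef1g*-cKO, also lower in both, from 2 and 4 reads in *Eef1g*-cKO (log2 fold change -0.90, standard error 0.42, limma adjusted p = 0.211). *Cdc25c* had 13.7 and 34.2 FPKM in control and 13.8 and 2.52 FPKM in *Eef1g*-cKO, where control replicate 1 and *Eef1g*-cKO replicate 1 were level and the other libraries far apart (log2 fold change -1.66, standard error 0.78, limma adjusted p = 0.211), and it was called decreased without *Eef1g*-cKO replicate 1 (log2 fold change -2.69, limma adjusted p = 0.0107). *Cdc14b*, a phosphatase of CDK targets, had 2.36 and 1.93 FPKM in control and 2.24 and 1.64 FPKM in *Eef1g*-cKO, overlapping values, and was the 1 of these 4 genes whose sign turned with centred libraries. *Cdc7*, the kinase that fires replication origins, had 34.8 and 31.4 FPKM in control and 27.6 and 32.5 FPKM in *Eef1g*-cKO (log2 fold change -0.14, standard error 0.24, limma adjusted p = 0.725). *Cdc34*, the ubiquitin-conjugating enzyme of SCF ligases, had 29.3 and 21.1 FPKM in control and 49.4 and 23.2 FPKM in *Eef1g*-cKO, and both genes overlapped between genotypes.

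**Figure D4:**
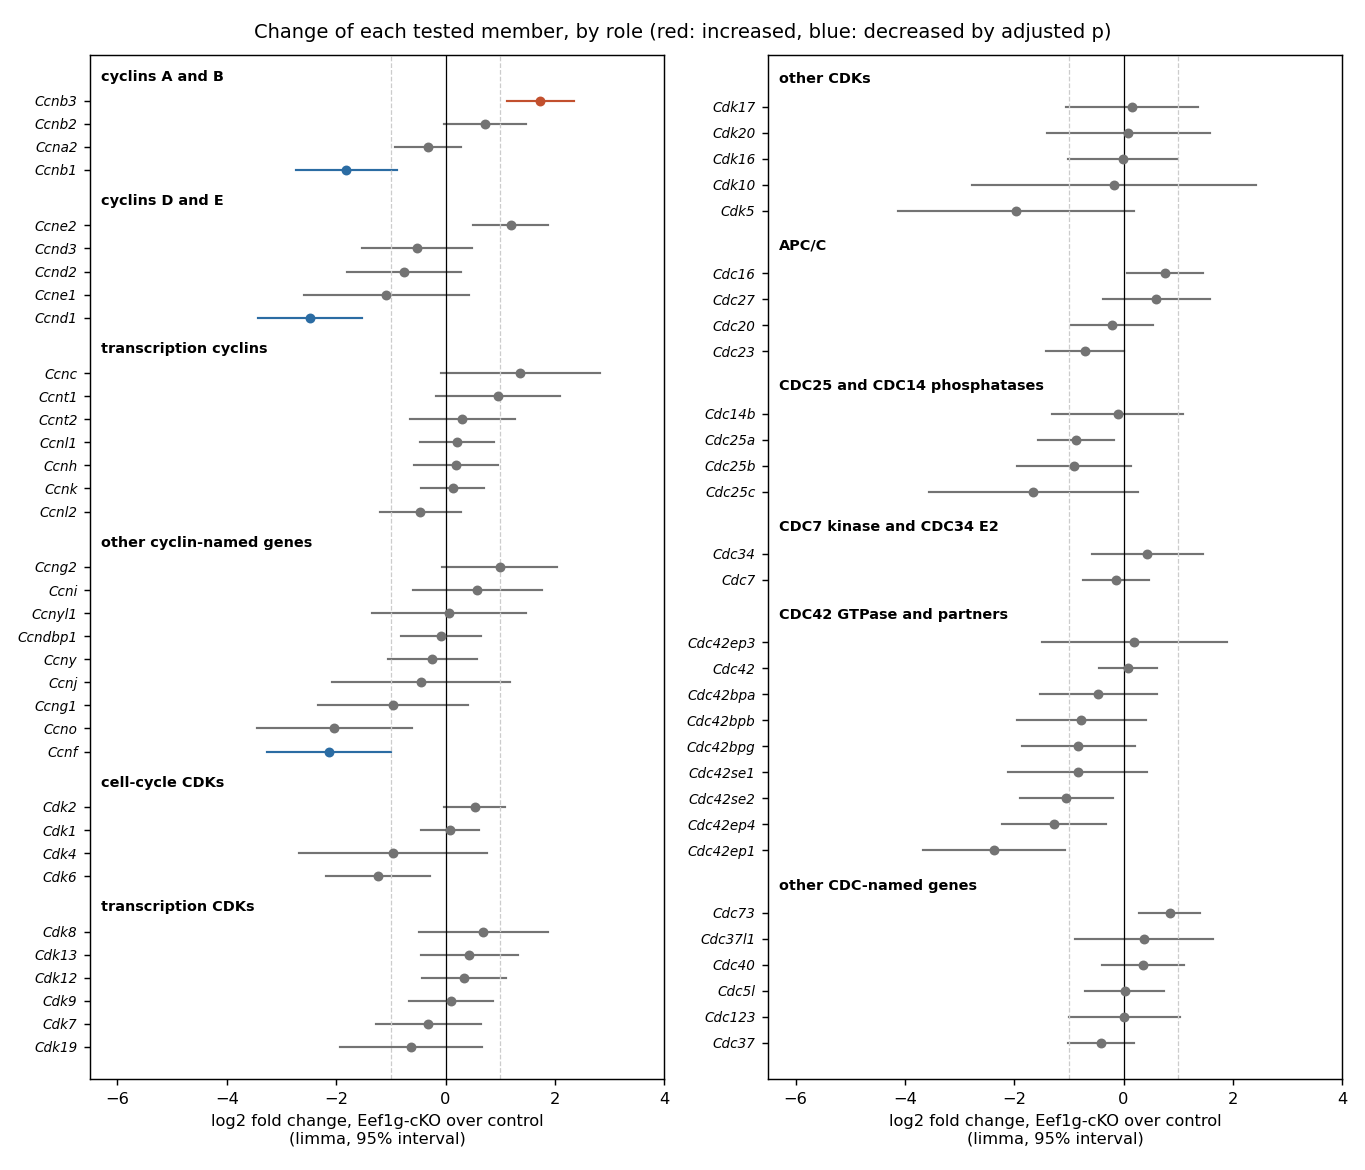
Log2 fold change of *Eef1g*-cKO over control with its 95% interval (limma on log2(FPKM + 1), 4 libraries) for each of the 65 tested members, grouped by role, with dashed lines at a log2 fold change of -1 and 1. *Ccnb3* (red) is the only member called increased and *Ccnb1*, *Ccnd1* and *Ccnf* (blue) are those called decreased; most intervals cross 0.

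No cyclin or CDK of transcription was called by limma. Among 7 transcription cyclins 6 log2 fold changes were positive (range of the group -0.46 to 1.37), and among 6 transcription CDKs 4 were (range -0.63 to 0.69), counts that centring the libraries left as they were. Without *Eef1g*-cKO replicate 1 the counts were 4 and 3, and without control replicate 1 they were 5 and 3. Leaving out replicate 2 of either genotype did not change them. *Ccnc*, a cyclin of the Mediator kinase module, had the largest value, with 1.85 and 6.78 FPKM in control and 9.2001 and 13.5 FPKM in *Eef1g*-cKO (log2 fold change 1.37, standard error 0.59, limma adjusted p = 0.181), and edgeR called it increased (adjusted p = 0.0433). The control libraries differed widely, with 20 and 41 reads. *Ccnk*, the partner of CDK12 and CDK13, had 45.7 and 40.9 FPKM in control and 52.6 and 42.8 FPKM in *Eef1g*-cKO and the most reads of the group (log2 fold change 0.13, standard error 0.23, limma adjusted p = 0.728). *Ccnl2*, linked to splicing, had the most negative value (45.1 and 38.8 FPKM in control and 23.8 and 38.1 FPKM in *Eef1g*-cKO, limma adjusted p = 0.346).

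*Ccnt1*, the cyclin of the elongation kinase CDK9, was higher in both *Eef1g*-cKO libraries (log2 fold change 0.95, standard error 0.46, limma adjusted p = 0.221), and *Ccnt2*, *Ccnh* and *Ccnl1* overlapped. *Cdk13*, a kinase of the RNA polymerase II tail, had the most reads of the transcription CDKs and overlapping values of 25.9 and 15.5 FPKM in control and 22.7 and 33.2 FPKM in *Eef1g*-cKO. *Cdk8*, of the Mediator module, had the largest increase (2.34 and 4.19 FPKM in control and 6.91 and 4.74 FPKM in *Eef1g*-cKO, limma adjusted p = 0.368) and its paralog *Cdk19* the largest decrease (1.94 and 2.86 FPKM in control and 0.769 and 1.69 FPKM in *Eef1g*-cKO, limma adjusted p = 0.452). *Cdk12* was higher and *Cdk7* lower in both *Eef1g*-cKO libraries, and *Cdk9* overlapped. Paralogs such as *Cdk8* and *Cdk19*, *Cdk12* and *Cdk13*, or *Ccny* and *Ccnyl1* may have had reads split between them, since the counting rule is not given in the sources used here.

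The other CDKs, *Cdk5*, *Cdk10*, *Cdk16*, *Cdk17* and *Cdk20*, were low and not called by limma over the 4 libraries. *Cdk16*, a kinase that male mice need for normal sperm, had 10.2 and 10.2 FPKM in control and 7.34 and 13.7 FPKM in *Eef1g*-cKO. *Cdk17*, its relative, had the largest positive value of the 5 at 0.16 with overlapping genotypes. *Cdk5*, best known from neurons, had 34 and 30 control reads and 0 and 4 *Eef1g*-cKO reads and the most negative value (log2 fold change -1.97, standard error 0.88, limma adjusted p = 0.192). *Cdk10* had 9 reads in *Eef1g*-cKO replicate 1 and 1 read in replicate 2, or 24.4 and 1.49 FPKM, and 28 and 21 control reads. Its direction turned with the *Eef1g*-cKO library left out, and each was called: limma gave a log2 fold change of -1.85 without *Eef1g*-cKO replicate 1 (adjusted p = 0.0394) and 1.504 without replicate 2 (adjusted p = 0.0316), so that *Cdk10* has no settled direction. Without *Eef1g*-cKO replicate 2 *Cdk5* was called decreased as well (log2 fold change -3.23, limma adjusted p = 0.00356).

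*Cdc42*, a small GTPase of cell polarity, and the genes named for it form a group apart from the cell cycle. *Cdc42* itself had 62.7 and 54.6 FPKM in control and 59.5 and 64.5 FPKM in *Eef1g*-cKO, overlapping and close (log2 fold change 0.08, standard error 0.21, limma adjusted p = 0.821, 95% interval -0.45 to 0.61). Of its 8 tested partners 7 had a negative log2 fold change, and 6 of these lay below control in both *Eef1g*-cKO libraries, as 37.7% of all tested genes did. The median over all tested genes was -0.23, and centring the libraries did not alter the count of 7. *Cdc42ep1*, an effector that binds the active GTPase, had 20 and 19 control reads and 0 and 0 *Eef1g*-cKO reads, which makes it at least 1.05-fold lower against the floor of 3 reads per library (limma adjusted p = 0.0521, or 0.0354 without *Eef1g*-cKO replicate 1 and 0.0289 without replicate 2). *Cdc42ep4*, a relative, had 10.2 and 13.1 FPKM in control and 3.97 and 4.36 FPKM in *Eef1g*-cKO (log2 fold change -1.28, standard error 0.39, limma adjusted p = 0.0915). *Cdc42se2*, a small effector, had 24.03 and 40.1 FPKM in control and 12.8 and 16.4 FPKM in *Eef1g*-cKO (log2 fold change -1.05, standard error 0.35, limma adjusted p = 0.108) and was called decreased by edgeR alone (adjusted p = 0.0494). *Cdc42ep3* had the most positive value of the partners, from 15 and 1 control reads and 1 and 1 *Eef1g*-cKO reads. Of the kinases that CDC42 binds, *Cdc42bpb* and *Cdc42bpg* lay below control in both *Eef1g*-cKO libraries and *Cdc42bpa* overlapped, and *Cdc42se1* lay below control in both. *Cdc42ep2* was not tested, with 9 and 3 control reads and 0 and 0 *Eef1g*-cKO reads.

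The last group takes CDC names from yeast genes of varied function. *Cdc73*, which encodes a subunit of the PAF1 transcription elongation complex, had 44.3 and 46.9 FPKM in control and 93.4 and 73.2 FPKM in *Eef1g*-cKO, both *Eef1g*-cKO libraries above both control libraries, with a log2 fold change under the limit of 1 (log2 fold change 0.85, standard error 0.23, limma adjusted p = 0.07296; edgeR adjusted p = 0.00852). It went from 8 to 3 in the order of the members by mean FPKM. *Cdc37*, the kinase chaperone that works with HSP90, had 77.5 and 109.7 FPKM in control and 65.5 and 72.9 FPKM in *Eef1g*-cKO, lower in both *Eef1g*-cKO libraries (log2 fold change -0.41, standard error 0.25, limma adjusted p = 0.305). *Cdc40*, of the spliceosome, was higher in both, and *Cdc5l*, *Cdc37l1* and *Cdc123* overlapped, none called. *Cdc20b* had 10 reads in control replicate 1 and 0 reads in the other libraries and was not tested.

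Partner genes of the pathway were counted from a list of 70, of which 66 were in the table and 64 tested. By adjusted p and fold in limma 4 increased, where 2.87% of all tested genes did, and 8 decreased, where 4.97% did. Among CDK partners *Spdya*, which encodes the CDK2 activator Speedy A and which the study picked on these samples, had 17.6 and 17.4 FPKM in control and 62.99 and 54.6 FPKM in *Eef1g*-cKO (log2 fold change 1.69, standard error 0.24, limma adjusted p = 0.0296). The 3 other increases were the APC/C subunit genes *Anapc15* and *Anapc16* (log2 fold change 1.90 and 1.10) and the checkpoint kinase *Bub1* (1.16). *Anapc15* rests on 13 and 4 reads in control and 4 and 7 reads in *Eef1g*-cKO. Its limma adjusted p was 0.0487, and edgeR did not call it (adjusted p = 0.0597).

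Of the 17 tested mitotic kinases and CDCA genes 6 decreased, beside 4.97% of all tested genes. *Plk1*, a kinase of mitotic entry and exit, had 86.4 and 137 FPKM in control and 42.6 and 43.4 FPKM in *Eef1g*-cKO (log2 fold change -1.32). *Aurkb*, the kinase of the chromosomal passenger complex, had 50.1 and 71.2 FPKM in control and 11.4 and 15.03 FPKM in *Eef1g*-cKO (log2 fold change -2.11). *Bub1b*, a checkpoint partner of *Bub1*, fell by 1.52 on the log2 scale, with 139 and 153 FPKM in control and 59.6 and 42.1 FPKM in *Eef1g*-cKO, while *Bub1* had 72.1 and 74.8 FPKM in control and 173 and 157 FPKM in *Eef1g*-cKO. *Cdca5* (sororin, which guards cohesion), *Cdca7* and *Cdca7l* had log2 fold changes of -1.70, -2.41 and -2.94. The CDK inhibitor locus *Cdkn2a* had 158 and 273 FPKM in control and 51.1 and 49.6 FPKM in *Eef1g*-cKO and the F-box gene *Skp2* had 51 and 24 reads in control and 0 in both *Eef1g*-cKO libraries, both decreased (limma adjusted p = 0.0307 and 0.0379). None of the 11 tested RB and E2F genes passed in either direction by limma's adjusted p, and 1 of them, *Rbl1*, did by its unadjusted p. In edgeR *Rbl1* passed as increased (log2 fold change 1.26, edgeR adjusted p = 0.00483). So did *E2f1* (1.82, edgeR adjusted p = 0.0315), whose genotypes overlapped. Over all pathway genes edgeR called 6 increased and 13 decreased, where 8.75% and 11.2% of its tested genes were. The median of the pathway genes was -0.22, beside -0.23 over all tested genes.

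Base composition differed along the range of the members' changes. GC content at the last codon position was 44.9% in *Ccnb3* and 38.6% in *Ccne2*, and 80.3% in *Ccnd1*, 64.5% in *Ccnf* and 49.8% in *Ccnb1*. Among 23 members at or above 60% the median log2 fold change was -0.76 and 18 were negative, and among 21 members under 50% it was 0.20 and 14 were positive. The same medians over all tested genes with a coding sequence were -0.53 and 0.17. Spearman's rank correlation of GC content with the fold change was -0.50 over 65 members and -0.30 over 10125 genes, given as a description, since all points share the same 4 libraries. An alternative chosen after seeing the data removed each library's GC trend, here along the GC content of the whole coding sequence. With it *Ccnb3* was called at a log2 fold change of 1.18, against 1.73 in the main setting. *Ccnd1* and *Ccnb1* were called too, and *Ccnf* was not (limma adjusted p = 0.0514). *Ccne2* had a log2 fold change of 0.55 (limma adjusted p = 0.279).

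**Figure D5:**
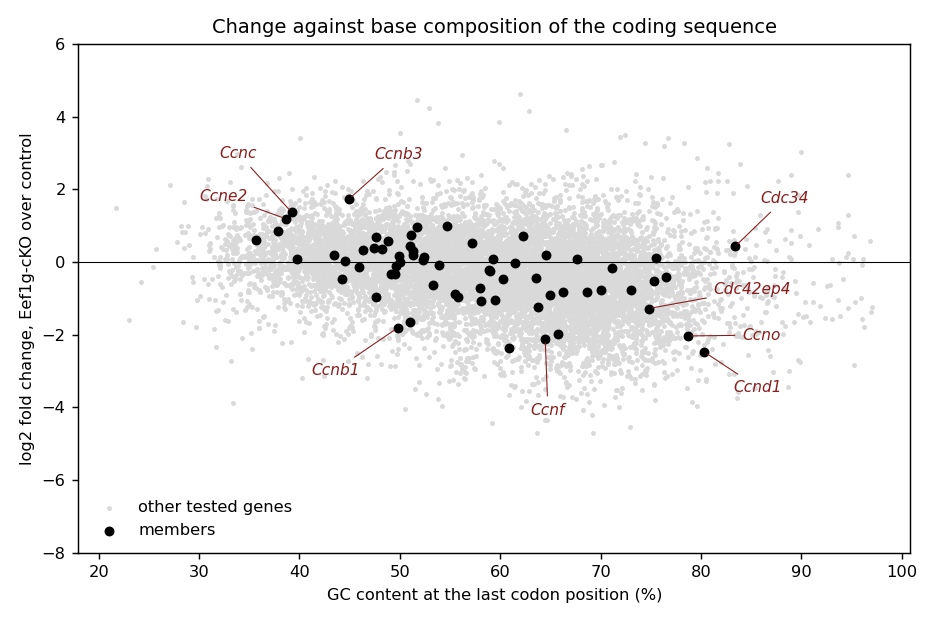
Log2 fold change of *Eef1g*-cKO over control (limma) against GC content at the last codon position (%), with members in black and other tested genes that have a coding sequence in grey. *Ccne2*, *Ccnc* and *Ccnb3* lie at low GC content and above 0, *Ccnd1*, *Ccno* and *Ccnf* at high GC content and below 0, and *Ccnb1* and *Cdc34* depart from that order.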

How the data were processed

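Ribo-seq libraries of leptotene/zygotene spermatocytes, 2 control and 2 *Eef1g*-cKO, were taken from 1 deposited table of 11598 genes. In it the authors gave FPKM per kilobase of gene length and 1000000 counted reads. Normalized counts, a signal that the authors made by dividing each count by a size factor per library, came out as whole multiples of 1 step in 100% of values (tolerance 0.001 reads), which gave back the read counts. The deposited gene length, another column, was used as it stands. Columns with the authors' own comparison (mean normalized count, log2 fold change, its standard error, a test score, p-value and adjusted p-value, as deposited) were not used. Every sample column matched a label. Per the labels, cutadapt, Bowtie, STAR, mm10 and hg38 were named, with no role. The study's methods name RiboMiner for quality checks, and the read counter, annotation and differential test for Ribo-seq are not given in the sources used here.

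Groups came from the sample titles. The main test was that of limma 3.58.1 in R 4.3.3, run with a trend in the prior variance on log2(FPKM + 1) of the 10475 genes whose mean reached 1 FPKM, with Benjamini-Hochberg adjustment over all of them. A call needed p under 0.05 and a log2 fold change beyond 1. The alternatives on recovered reads were edgeR 4.0.16 (its quasi-likelihood test after filterByExpr and TMM) and DESeq2 1.42.0. The fits were first run on simulated libraries with known changes. That check was judged by unadjusted p, so it does not vouch for the adjusted calls. Sums over members were compared with exact permutation tests in Python 3.11.15 (scipy 1.17.1). Rate ratios pool the reads of a genotype, with exact 95% intervals. Intervals and the floor of 3 reads that a count of 0 allows cover counting error only, since reads without molecular identifiers are not independent molecules. At these depths 1 read on a gene of 1 kb was worth 0.403 and 0.722 FPKM in control and 4.47 and 2.45 in *Eef1g*-cKO.

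Genes named are the members with an adjusted call, all A, B, D and E cyclins, cell-cycle CDKs, APC/C genes and CDC25 and CDC14 phosphatases, *Cdc7*, in every other role the member with the most reads, the largest increase and the largest decrease, the pathway genes with an adjusted call, and members without overlap at an unadjusted p under 0.05. Other members are named to account for all 67. The members, their roles, the pathway list and the marker lists (leptotene/zygotene, preleptotene, spermatogonia, pachytene and later, spermatids, Sertoli, Leydig and peritubular cells, macrophages, endothelium and blood) were chosen with earlier results of these data known. Promoters and symbols came from RefSeq (GRCm38.p6), in which all 67 member symbols matched, and coding sequences for GC content were the longest of each gene in GENCODE. The build of the read counts is only known as named in the labels, so coordinates are for orientation.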

Additional observations from a re-analysis of the deposited data

How the results depend on the processing

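Of 899 values of single genes (39 members and 12 pathway genes under 18 alternatives), 750 kept their direction and side of the threshold, 98 lost a call, 20 gained one and 31 changed sign. The cause of the changes was not tested, save where an alternative leaves out samples or genes. Both replicate-block fits were run although the numbers did not pair the libraries: same-numbered libraries deviated with a correlation of -0.00804 over 10475 genes and -0.0628 over 3381 well-covered genes. With the replicate block limma called 1 member increased and 3 decreased, and edgeR with the replicate block called 3 increased and 6 decreased, *Ccng1* and *Cdc25c* among the latter (adjusted p = 0.03699 and 0.0201), with a member median of -0.0254. Adjusted calls of members, increased and decreased, were 2 and 2 by DESeq2, 3 and 4 by edgeR, 3 and 3 by edgeR without a filter or with DESeq2 size factors, 2 and 3 when the mean had to reach 5 FPKM, 3 and 1 with median-centred libraries, and 0 and 0 without the prior trend, with a pseudocount of 0.1 and in libraries thinned to equal depth. Leaving out 1 library in turn gave 0 to 3 increased and 0 to 6 decreased, both 0 without control replicate 1 or 2. By unadjusted p there were 1 increased with the GC trend removed, 6 with centred libraries and 1 with a pseudocount of 5, which left 3 decreased, and DESeq2 gave 5 decreased. Without 1 library in turn these were 2 to 5 and 4 to 11.

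Pathway genes called increased and decreased were 2 increased without a filter, 0 and 0 without the prior trend and in thinned libraries, 0 and 1 with a pseudocount of 0.1, and 13 decreased in each edgeR fit, with 0 to 5 and 0 to 13 without 1 library in turn. The members' median was -0.29 with the GC trend removed, -0.0179 when the mean had to reach 5 FPKM, 0.11 with centred libraries, -0.0333 with low members at their bound and -0.25 to -0.00614 without 1 library in turn. The members' ratio of reads per 1000000 was 0.998 when *Rnu11*, a small nuclear RNA gene, was left out of the total, and 0.992 to 1.09 without 1 library in turn. Among these 39 members, the signs that turned were of members that the main setting did not call: *Cdk16* to 0.16 by DESeq2 and 0.16 in edgeR with the replicate block, 0.0805 with the GC trend removed, 0.20 by edgeR, by edgeR with DESeq2 size factors, by edgeR without a filter and with centred libraries, and 0.0326 thinned; *Cdc14b* to 0.11 centred and 0.25 thinned; *Cdc20* to 0.00311 and *Cdc7* to 0.0738 centred; *Cdc42* to -0.33, *Cdk1* to -0.15 and *Cdk17* to -0.17 with the GC trend removed; *Cdk1* to -0.13 and *Cdk17* to -0.55 thinned; *Cdc42ep3* to -0.0119 by DESeq2 and -0.0961 by edgeR without a filter. Without 1 library in turn *Ccnk* ranged from -0.0123 to 0.28, *Cdc14b* from -0.25 to 0.0457, *Cdc20* from -0.59 to 0.17, *Cdc34* from -0.0953 to 0.96, *Cdc42* from -0.0178 to 0.18, *Cdc42ep3* from -0.59 to 0.99, *Cdk1* from -0.00702 to 0.16, *Cdk16* from -0.43 to 0.39, *Cdk17* from -0.26 to 0.59 and *Cdk4* from -2.08 to 0.15. *Cdk10*, not among the 39, was called in opposite directions without *Eef1g*-cKO replicate 1 (-1.85) and replicate 2 (1.504). Depth limits the lower members: 9 had at most 3 reads in each *Eef1g*-cKO library and 4 had none there.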
